A study of Mus musculus with 6 samples.

Results

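The 5 genes described here encode the neuronal intermediate filament proteins: the neurofilament light, medium and heavy chains (Nefl, Nefm and Nefh), alpha-internexin (Ina) and peripherin (Prph). They were taken by gene symbol, as every transcript cluster of the array whose single symbol is one of these names. Each gene had 1 cluster, so the set holds 5 of 100843 clusters. Nefm and Nefl drew attention through their lower signal in Sall3 knockout explants in an earlier look at these arrays. The differences between genotypes are therefore given for the set as a description, with no test.

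Retinas of Sall3 knockout and wild-type C57BL/6 mice of mixed sex were dissected on postnatal day 0 and cultured on floating filters for 7 days. Sall3 is a transcription factor gene of the Spalt type, whose products bind DNA through zinc fingers. Each genotype has 3 samples, each sample pooled RNA from 3 retinas, and each was measured on a separate Affymetrix exon array. All 6 samples went through isolation and culture, and the labels do not describe the knockout allele. The labels also do not say whether samples came from separate litters or cultures, so any p-value measures the spread between these samples only.

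Neurofilaments are heteropolymers that fill axons and set their calibre. The light chain can form the core of the filament, the medium and heavy chains carry long tails that are phosphorylated at Lys-Ser-Pro repeats and reach out from it, and alpha-internexin and peripherin co-assemble with them. In the mouse retina neurofilaments are known above all from the axons of ganglion cells, the output neurons of the retina, and from horizontal cells, the interneurons that contact photoreceptor terminals. Isolating a retina cuts the optic nerve and so severs every ganglion cell axon.

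Signals are log2 values after quantile normalization between arrays, a change is knockout minus wild-type on that scale, and its error is the moderated standard error (SE) of the fit over all clusters. A signal depends on the probes of its cluster, so levels are compared between samples and not between genes. In bulk RNA, fewer cells of a type and less RNA per cell cannot be told apart.

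Nefl and Nefm had lower mean signals in knockout than in wild-type explants, by about the same amount, while Ina and Prph stood close to 0 and Nefh lay between. Nefl, the light chain, had signals of 9.40, 8.95 and 8.82 in knockout 1, 2 and 3. In wild-type 1, 2 and 3 it had 9.42, 9.62 and 9.38. Knockout 2 and knockout 3 lay below every wild-type array, whereas knockout 1 lay inside the wild-type range, so the groups overlapped. The means were 9.06 ± 0.30 in knockout and 9.47 ± 0.13 in wild-type (SD, n = 3), a difference of -0.42 (SE 0.18), or 1.34-fold more signal in wild-type.

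Nefm, the medium chain, had signals of 9.26, 9.09 and 8.89 in knockout 1, 2 and 3 and of 9.50, 9.51 and 9.44 in wild-type 1, 2 and 3. Every knockout array was lower than every wild-type array, with a gap of 0.19 between the nearest of them. The wild-type samples spanned only 0.07, the knockout samples 0.37. The difference was -0.41 (SE 0.12), with 9.08 ± 0.18 in the knockout and 9.48 ± 0.04 in the wild-type group (SD, n = 3), or 1.33-fold more signal in wild-type.

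Nefm was the 1 member of the set whose groups did not overlap with knockout lower, and 0 members were separated with knockout higher. Among all 17468 genes, each represented by its brightest cluster, 11.2% had every knockout array under every wild-type array and 1.7% had the reverse. Those shares depended on the scaling: knockout lower made up 86.9% of the genes without overlap after quantile normalization, 44.9% in the values as deposited and 68.7% after median centring. Nefm stood apart, with knockout lower, under each of these scalings. With median centring, 5.36% of all genes did so with knockout lower and 2.44% with knockout higher. For the deposited values these shares were 3.75% and 4.6%. Of all genes, 169 (0.967%) had a difference at or below that of Nefl, and 186 (1.06%) one at or below that of Nefm. Since this contrast drew attention to both genes, these places in the ranking describe them and support nothing.

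Nefh, the heavy chain, added to neurofilaments late in neuronal maturation, had signals of 7.07, 6.85 and 6.79 in knockout 1, 2 and 3 and of 7.00, 7.16 and 6.97 in wild-type 1, 2 and 3. Its order of arrays was like that of Nefl, with knockout 2 and 3 lowest and knockout 1 among the wild-type values. The difference of -0.14 (SE 0.12) was about the size of its error.

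Ina, the alpha-internexin gene, which neurons express before the neurofilament triplet in development, had signals of 11.03, 10.91 and 11.00 in knockout 1, 2 and 3. In wild-type 1, 2 and 3 it had 11.01, 11.03 and 10.88. The groups lay on top of each other, at 10.98 ± 0.06 and 10.97 ± 0.08 (SD, n = 3), with a difference of 0.01 (SE 0.10).

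Prph, whose product peripherin is typical of neurons with axons outside the brain and of some projection neurons, had signals of 5.61, 5.52 and 5.52 in knockout 1, 2 and 3. Its wild-type signals were 5.39, 5.59 and 5.52 in wild-type 1, 2 and 3. The knockout values lay between the lowest wild-type value and just above the highest, and the difference was 0.05 (SE 0.10). Any background in the signal is unknown for these arrays and would make a difference in signal smaller than that in RNA.

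**Figure D1:**
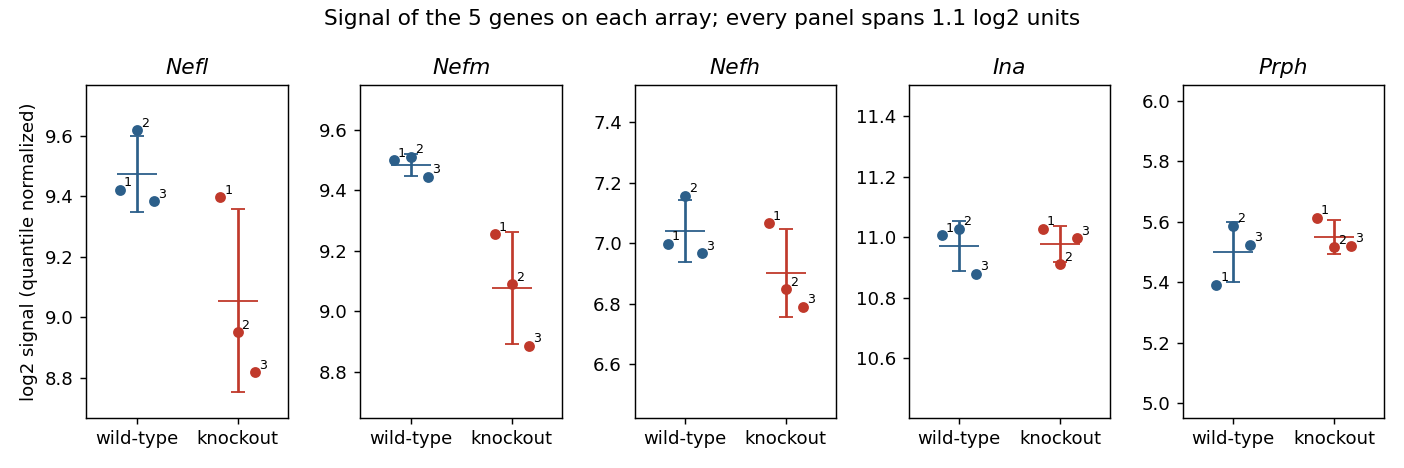
Log2 signal (vertical axis) of Nefl, Nefm, Nefh, Ina and Prph on every array, with wild-type in blue and knockout in red; numbered points are samples, long ticks the group means and bars 1 SD (n = 3). Nefm separates the genotypes, knockout 1 sits at 9.40 among the wild-type values for Nefl, and the groups coincide for Ina and Prph.

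Knockout 1 was the highest and knockout 3 the lowest knockout array in Nefl, Nefm and Nefh. Relative to the wild-type mean, Nefl stood at -0.08, -0.52 and -0.66 in knockout 1, 2 and 3, Nefm at -0.23, -0.40 and -0.60, and Nefh at 0.03, -0.19 and -0.25. In all 5 genes knockout 1 was the highest knockout array and wild-type 2 the highest wild-type array. That order was common on these arrays: knockout 1 was the highest knockout array in 75.3% of all genes and wild-type 2 the highest wild-type array in 60.9%. In the values as deposited the shares were 64.9% and 34.2%, with 4 of the 5 genes in each case. Wild-type 1 was then the highest wild-type array more often than wild-type 2, in 41.4% of all genes. The part of this general order in the values of the set was not tested.

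Without knockout 1 the differences were -0.59 for Nefl, -0.50 for Nefm and -0.22 for Nefh, and the groups of all 3 no longer overlapped. This leaves 2 knockout arrays, and 32.9% of all genes then had every knockout array below every wild-type array, so that count of 3 is read against a much larger share. Without wild-type 3 the count was 2, Nefl and Nefm, against 17.9% of all genes. Without knockout 3 the differences were smaller, at -0.30 for Nefl, -0.31 for Nefm and -0.08 for Nefh, and without wild-type 2 that of Nefh was also -0.08. Ina changed sign with knockout 1, knockout 3 or wild-type 3 left out and Prph with wild-type 1 left out.

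**Figure D2:**
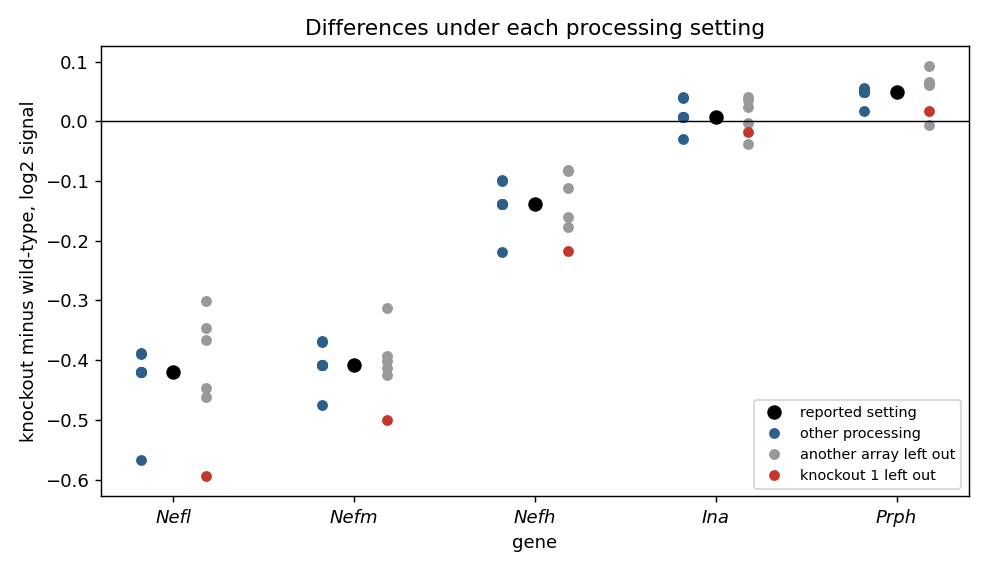
Difference between knockout and wild-type in log2 signal (vertical axis) for each gene of the set: black, the reported value; blue, the other scalings, filters, variance models and weights; grey, another array left out; red, knockout 1 left out. Nefl, Nefm and Nefh stayed below 0 in every setting shown, Nefl between -0.59 and -0.30, while Ina and Prph lay on both sides of 0.

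Nefl and Nefm were also set side by side by their profiles over the 6 arrays, as the root mean square difference between their deviations from their own means. Between Nefl and Nefm it was 0.10 in log2 units, against 0.17 between Nefl and Nefh, 0.15 between Nefm and Nefh, 0.27 between Nefl and Ina, and 0.08 between Ina and Prph. This measure depends on amplitude as well as shape. The root mean square of a gene's own deviations was 0.28 for Nefl, 0.23 for Nefm, 0.12 for Nefh, 0.06 for Ina and 0.07 for Prph, so the values for pairs with Ina or Prph are about what these amplitudes give. Nefl and Nefm lie next to each other on chromosome 14 in the RefSeq gene table of assembly GRCm38, with 1 predicted gene listed between them that was not measured here. The nearest measured genes on either side, picked by position after the values of the set were seen, were Dock5, a guanine nucleotide exchange factor, on the side of Nefl and A230070E04Rik on the side of Nefm. Dock5 stood at -0.11 (SE 0.09), with every knockout array lower than every wild-type array, as in 11.2% of all genes. A230070E04Rik stood at 0.08 (SE 0.16) with overlapping groups, at -0.05 with array weights and at -0.08 without knockout 1.

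Closeness of profile was not confined to the filament genes: 10 genes lay closer to Nefl than Nefm did, and 31 lay closer to Nefm than Nefl did. The 5 genes nearest to Nefl over the 6 arrays were Ephx1, the microsomal epoxide hydrolase, at a root mean square difference of 0.08, Plekhd1 and Arl11, both at 0.09, Tldc2 at 0.10 and 6330409D20Rik at 0.10. Those nearest to Nefm were Rxfp4, a relaxin family peptide receptor, at 0.04, D630045J12Rik at 0.05, the cone arrestin gene Arr3 and the histamine receptor gene Hrh3, both at 0.06, and Abhd12b at 0.07. The samples behind the likeness are the same 6 arrays that show the difference between genotypes, so genes of like profile share that difference by construction.

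Other intermediate filament genes had differences near 0. Of 13 on the list, 12 were measured, and 0 passed the adjusted threshold of 0.05 in limma in either direction. Their differences ranged from -0.09 to 0.06 with a median of -0.02, against a median of -0.01 over all genes. The lamins of the nuclear envelope stood at -0.09 for Lmnb2, -0.04 for Lmnb1 and -0.03 for Lmna. Lmnb2 and Lmnb1 were the 2 genes of this list that separated the genotypes, with knockout lower, 2 of 12 being close to the 11.2% of all genes. In the values as deposited and under median centring neither of them did, and Lmnb1 changed sign.

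The filaments of glia and progenitors stood at -0.01 for vimentin (Vim), 0.06 for glial fibrillary acidic protein (Gfap) and 0.03 for nestin (Nes). Synemin (Synm) stood at -0.05, the muscle filament gene Des at -0.07, the lens filament genes Bfsp1 and Bfsp2 at -0.01 and -0.04, and the epithelial keratins Krt18 and Krt19 at 0.05 and -0.01. Of these, Vim, Gfap, Nes, Krt18, Krt19, Bfsp1 and Bfsp2 changed sign in at least 1 other setting. The SE of these 12 genes was close to that of Ina and Prph.

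**Figure D3:**
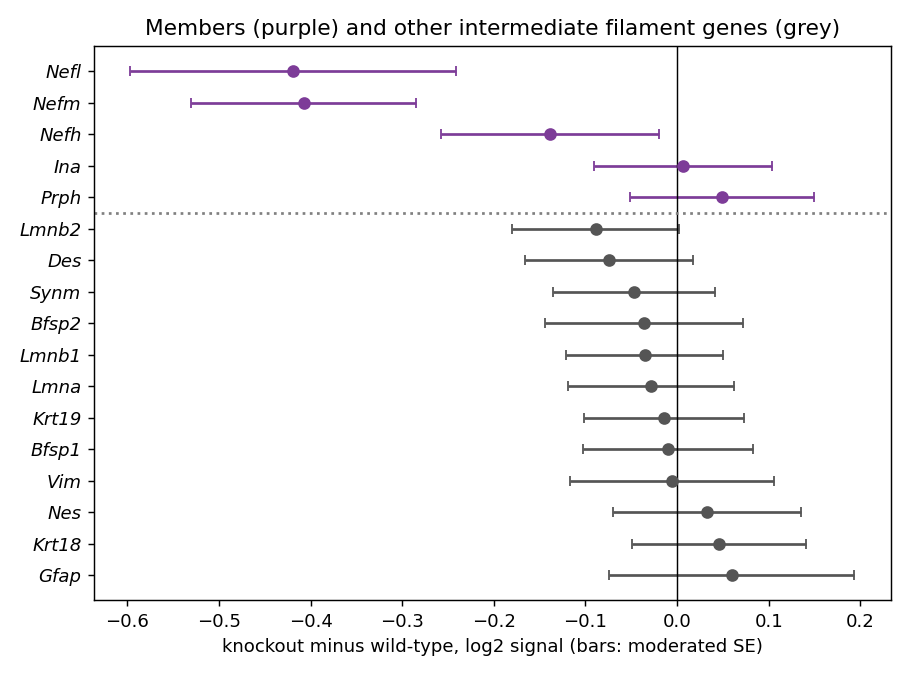
Difference between knockout and wild-type in log2 signal (horizontal axis) for the 5 genes of the set in purple and 12 other intermediate filament genes in grey, with bars of 1 moderated SE. Nefl and Nefm lie at -0.42 and -0.41, and the other intermediate filament genes between -0.09 and 0.06.

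Across all clusters the comparison called 0 of 75632, or 0% in either direction, in limma with Benjamini-Hochberg adjustment (smallest adjusted p = 0.539). Without adjustment, 2458 clusters with lower and 2511 with higher knockout signal had p under 0.05. The 14 lists beside the set hold 168 genes, of which 153 were measured and 0 passed. At the unadjusted threshold 11 of the list genes were lower and 1 higher, of which 5 belonged to horizontal cells and 4 to cones.

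The proteins that bind, carry and modify neurofilaments are given as 3 lists, and 0 of their genes passed. Linkers and transport motors had a median of -0.03 over 12 of 13 genes. The cytoplasmic dynein heavy chain gene Dync1h1, which carries neurofilaments back towards the cell body, had signals of 10.38, 10.48 and 10.54 in knockout 1, 2 and 3 and of 10.81, 10.63 and 10.99 in wild-type 1, 2 and 3. No arrays overlapped, and knockout 1 was here the lowest of all, with a difference of -0.34 (SE 0.13; limma unadjusted p = 0.0348, adjusted p = 0.725). Plectin (Plec), which links intermediate filaments to other parts of the cytoskeleton, stood at -0.14, and the spectrin gene Sptan1 and the ankyrin gene Ank2 both at -0.09. All 4 of these had knockout arrays entirely below wild-type arrays, 4 of the 12 measured against the 11.2% of all genes. In the values as deposited this held for 2, Dync1h1 and Plec, against 3.75% of all genes. The list median was then 0.01, as was the median of all genes.

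Kinases, phosphatases and turnover factors of neurofilaments had a median of 0.01 over 11 of 15 genes. The groups separated in 0 of them, against 11.2% of all genes with knockout lower and 1.7% with knockout higher. Mapk8, a kinase of the JNK family that phosphorylates neurofilament tails, stood at 0.19 (SE 0.17) and the protease gene Capn1 at -0.09. The value of Mapk8 was 0.03 with wild-type 3 left out and 0.13 with knockout 1 left out. Axonal microtubule proteins had a median of -0.02 over 15 of 16 genes. Among them the microtubule-associated protein genes Map1a and Map1b stood at -0.14 and -0.09, the tubulin gene Tubb2a at -0.12 and the microtubule destabiliser Stmn1 at 0.14. Map1a and Map1b were among the 4 genes of the 15 in which knockout arrays were lower without overlap, against 11.2% of all genes. As deposited, the count was 0, against 3.75% of all genes, and the list median was 0.01, as for all genes.

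Ganglion cell markers were examined because these cells hold most of the long axons of the retina. Of 15 measured genes of 16, 9 had lower and 6 higher values in knockout, 0 passed, and the median was -0.01, as for all genes. As deposited, it was 0.00, with 7 genes lower. The mean signal of the list ranged from 6.68 to 6.92 over the knockout arrays and from 6.71 to 6.86 over the wild-type arrays. Among the defining markers, the transcription factor gene Pou4f1 stood at -0.07, the RNA-binding protein gene Rbpms at -0.04 and the surface antigen gene Thy1 at -0.04. The glutamate transporter gene Slc17a6 had 5.46, 5.01 and 5.16 in knockout 1, 2 and 3, against 5.49, 5.41 and 5.36 in wild-type 1, 2 and 3. The gamma-synuclein gene Sncg had 8.15, 7.80 and 7.97 in knockout 1, 2 and 3, against 8.18, 8.34 and 8.09 in wild-type 1, 2 and 3. In both, knockout 2 and 3 lay lowest and knockout 1 fell among the wild-type values, as for Nefl. Among all genes, knockout 1 was the highest knockout array in 75.3%. The differences were -0.21 (SE 0.14) for Slc17a6 and -0.23 (SE 0.13) for Sncg. Without knockout 2 these were -0.11 and -0.14, and without knockout 1 Slc17a6 stood at -0.33.

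Other ganglion cell genes stood on the opposite side, with 0.29 (SE 0.18) for neuritin (Nrn1) and 0.23 (SE 0.16) for the nicotinic receptor subunit Chrnb3. Without knockout 1 these were 0.12 and 0.11, without wild-type 3 Chrnb3 stood at 0.13, and without knockout 2 Nrn1 stood at 0.43. Pou4f2 had no cluster used here. Genes that ganglion cells and other neurons switch on after axon injury or stress had 10 of 12 members below 0. Of all genes, 54.7% were below 0. In this list 0 genes passed, and the median was -0.09. The neuropeptide gene Npy stood at -0.57 (SE 0.17; limma unadjusted p = 0.0158, adjusted p = 0.669), without overlap between the groups. Gadd45a stood at -0.26 and Ddit3 at -0.19, both without overlap, and Sprr1a at -0.27 with overlap. Knockout arrays lay entirely below wild-type arrays in 4 of the 12 genes, against 11.2% of all genes. Without wild-type 3 Gadd45a, Ddit3 and Sprr1a stood at -0.11, -0.09 and -0.09, and Sprr1a at -0.16 without knockout 1 and -0.45 without wild-type 1. In the values as deposited 7 of the 12 were below 0. Npy was then the 1 gene without overlap, knockout lower, against 3.75% of all genes. For the whole list the mean signal lay between 6.90 and 7.09 in knockout and between 6.99 and 7.20 in wild-type arrays.

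Horizontal cell markers, the other cell type known for neurofilaments, had lower values in knockout in nearly the whole list. Of 12 measured genes of 13, 11 had lower values in knockout, against 54.7% of all genes, with a list median of -0.23. Of these, 7 had no overlap between the groups, against 11.2% of all genes, and 0 of the list passed over all clusters. In the values as deposited 10 were lower, 7 of them without overlap, against 3.75% of all genes, with a median of -0.19. The mean signal of the list was 8.41 to 8.50 in knockout and 8.66 to 8.79 in wild-type arrays, with no overlap. The transcription factor genes Lhx1 and Onecut1 had the largest differences of the list, at -0.77 (SE 0.11) and -0.64 (SE 0.12). Unlike in Nefl, knockout 1 was low here too: Lhx1 had 7.10, 6.86 and 6.97 in knockout 1, 2 and 3 against 7.69, 7.85 and 7.71 in wild-type 1, 2 and 3. The calcium-binding protein calbindin (Calb1), which marks mature horizontal cells, had 8.91, 8.72 and 8.70 in knockout 1, 2 and 3, against 8.89, 9.17 and 8.84 in wild-type 1, 2 and 3. With knockout 1 inside the wild-type range and wild-type 2 highest, its order was close to that of Nefl. Knockout 1 was the highest knockout array in 75.3% of all genes, and wild-type 2 the highest wild-type array in 60.9%. In the values as deposited these shares were 64.9% and 34.2%. The difference of Calb1 was -0.19 (SE 0.13), or -0.09 without wild-type 2. Prox1 stood at -0.13. What part of the signal of Nefl and Nefm came from horizontal or ganglion cells was not tested.

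**Figure D4:**
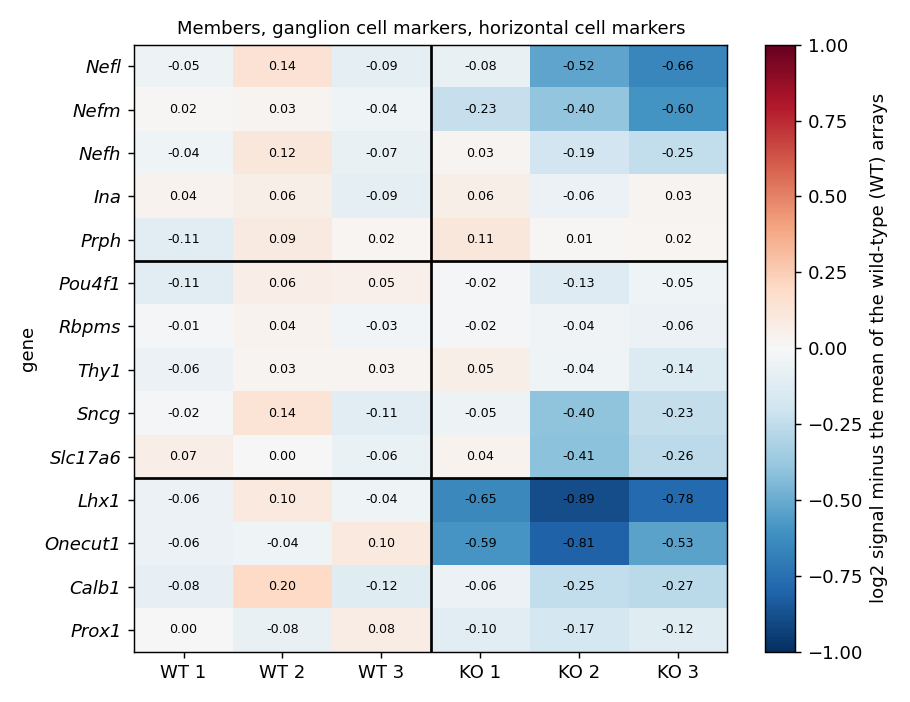
Log2 signal minus the mean of the wild-type arrays (colour and printed value) for the 5 genes of the set, 5 defining markers of ganglion cells and 4 of horizontal cells (rows), on the wild-type (WT) and knockout (KO) arrays (columns). Nefl, Nefm, Sncg, Slc17a6 and Calb1 are lowest in knockout 2 and knockout 3. Knockout 1 was the highest knockout array in 75.3% of all genes. Lhx1 and Onecut1 are low on every knockout array, Prox1 lies slightly below 0 on each of them, and Pou4f1, Rbpms and Thy1 stay near 0.

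The remaining lists describe the rest of the tissue, and 0 of their genes passed. After quantile normalization the medians were 0.00 for amacrine cells, 0.04 for bipolar cells, 0.04 for rods, 0.01 for Müller glia and astrocytes, -0.04 for fibroblasts and pericytes, -0.12 for microglia and -0.22 for cones. Of the 10 cone genes 9 were lower in knockout, against 54.7% of all genes. Of these, 5 had no overlap, against 11.2% of all genes. The mean signal of the cone list was 7.01 to 7.23 in knockout and 7.46 to 7.75 in wild-type arrays, which did not overlap. The short-wavelength opsin gene Opn1sw stood at -2.35 (SE 0.37) and Arr3 at -0.51 (SE 0.13). All 10 microglia genes stood below 0 (9 in the values as deposited), against 54.7% of all genes. Without wild-type 2 the count was 7, with a list median of -0.05. The median was also -0.05 without knockout 2 or without knockout 3. Cx3cr1 stood at -0.37 (SE 0.19), or -0.20 without knockout 3. The mean signal of the microglia list was 7.50 to 7.85 in knockout and 7.69 to 7.89 in wild-type arrays. The part of cone and microglia RNA in the values of the set was not tested. Gad2, a glutamate decarboxylase gene of amacrine cells, stood at 0.34 (SE 0.13) without overlap between the groups. Of all genes, 1.7% were separated with knockout higher. The 10 amacrine genes were divided, with 5 lower and 5 higher in knockout. Among them Gad1 stood at -0.09 (SE 0.09) without overlap, knockout lower, against 11.2% of all genes. These arrays came with no detection value, so the labelled tissue could not be checked against markers by their presence.

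The targeted gene Sall3 had signals of 6.24, 6.05 and 6.13 in knockout 1, 2 and 3 and of 6.21, 6.36 and 6.33 in wild-type 1, 2 and 3. Knockout 1 lay inside the wild-type range, and the difference of -0.16 (SE 0.10) was within the spread between samples (exact two-sided permutation p = 0.2, where 0.1 is the smallest p that 3 against 3 allows). Where its probes lie relative to the deleted part is not known, so Sall3 does not check the genotype labels.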

How the data were processed

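The deposited table holds log2 signal, 1 value per transcript cluster and array, with the log2 scale inferred from a range of 1.48 to 13.86. Per the submitters' processing notes, Affymetrix Expression Console, PLIER and mm8 were used, with no version or role stated; how arrays were normalized and background removed is not given in the sources used here. Of 100843 clusters, 22608 had 1 gene symbol, 1462 several and 76773 were unnamed here; 22101 symbols were updated through gene identifiers to RefSeq (GRCm38), which served for names and for which genes neighbour each other; none of its coordinates are printed.

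Column medians ran from 4.97 to 5.07. Values were quantile normalized, and clusters kept where the mean over 6 arrays reached the 25th percentile (3.70), which left 75632, all 5 genes of the set among them. Each gene was represented by its brightest kept cluster. Genotypes were compared by limma 3.58.1 under R 4.3.3 (lmFit, eBayes; two-sided). P-values were adjusted by Benjamini-Hochberg over the kept clusters, with calls at 0.05; 3 arrays per group leave 4 residual degrees of freedom, and for arrays only their number can be given as a limit on precision. The script was tested on simulated data. The set, the lists and the naming rule were chosen with earlier results of these data known. The rule named the set, Sall3, the other intermediate filament genes, up to 4 genes with the smallest p per other list, the defining markers, and the 5 genes nearest in profile to Nefl and to Nefm. The alternatives tried were no normalization, median centring, other filters, an intensity trend, array weights, a replicate block, 1 row per gene and each array left out; the count of genes of the set without overlap under these was added after seeing the data. Figures used matplotlib 3.10.9.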

Additional observations from a re-analysis of the deposited data

How the results depend on the processing

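Under all 14 other settings limma called 0 clusters and 0 list genes, with a smallest adjusted p between 0.0808 (without wild-type 3) and 0.803; 4444 to 6762 clusters had an unadjusted p under 0.05 in fits over clusters and 778 of the genes with 1 row per gene, and 8 to 17 of the list genes. The differences of Nefl, Nefm and Nefh kept their sign in each. With an array left out they ranged from -0.59 to -0.30, from -0.50 to -0.31 and from -0.22 to -0.08, those of Ina from -0.04 to 0.04 and of Prph from -0.01 to 0.09. Array weights gave -0.57, -0.47, -0.22, -0.03 and 0.02 for Nefl, Nefm, Nefh, Ina and Prph, and median centring -0.39, -0.37, -0.10, 0.04 and 0.06. The count of genes of the set without overlap, knockout lower, ranged from 1 to 3 with an array left out. It was 3 without knockout 1, where the share of all genes was 32.9%. Without wild-type 3 it was 2, where that share was 17.9%. Of 55 other genes followed under these settings, 10 changed sign in at least 1 setting, none of them called. The 55 include Tpm3 of the horizontal cell list, at -0.56 (SE 0.10), and Nrl of the rod list, at -0.10 (SE 0.09). As deposited, Vim stood at 0.0236 and Lmnb1 at 0.0105, and under median centring at 0.0252 and 0.0121. With array weights Gfap stood at -0.013, Nes at -0.0226 and A230070E04Rik at -0.0509. With an array left out the ranges were -0.0837 to 0.0353 for Vim, -0.0336 to 0.153 for Gfap, -0.0164 to 0.071 for Nes, -0.0041 to 0.0714 for Krt18, -0.0342 to 0.0087 for Krt19, -0.0512 to 0.0202 for Bfsp1, -0.0895 to 0.026 for Bfsp2, -0.0904 to 0.0064 for Thy1 and -0.0789 to 0.171 for A230070E04Rik. The causes were not tested. Deviations from the genotype means had correlations of 0.012, -0.093 and 0.083 between same-numbered arrays. Between differently numbered arrays they ran from -0.134 to 0.141. These values cannot tell whether same-numbered samples shared a litter or a culture. The replicate block left the difference of Nefl at -0.42 and called 0 clusters in limma (smallest adjusted p = 0.740). The mean of a gene's clusters was not run as a separate setting for the set, since each gene has 1 cluster.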
